A study of Arabidopsis thaliana with 2 samples.

Results

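The genes described here are 10 Arabidopsis thaliana genes of iron nutrition, chosen by their locus identifiers. They are the ferritin genes FER1, FER2, FER3 and FER4, the transcription factor genes bHLH38, bHLH39, bHLH100 and bHLH101, the iron transporter gene IRT1 and the ferric reductase gene FRO2. The deposited table lists 8 of these 10 genes among its 11666 genes. Transcript levels of FER2 (AT3G11050) and FER3 (AT3G56090) were not analysed here. RNA-seq was carried out on whole seedlings of the wild type and of the mutant ago1-36, which affects ARGONAUTE1 (AGO1), the main effector protein of plant microRNAs. Seedlings of both genotypes were 12 days old and grew at 23 °C on Murashige and Skoog plates with 3% sucrose, under 16 h light and 8 h dark. Each genotype had 1 library, with a depth near 13670000 reads in wild type and 13590000 in ago1-36, so higher and lower refer to these 2 libraries and no difference has a replicate check. AGO1 itself (AT1G48410) had 48.6 RPKM (reads scaled to gene length and library size) in wild type and 5.59 RPKM in ago1-36, a direction that goes with the labels.

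Arabidopsis roots take up iron by reduction. The plasma membrane reductase FRO2 converts ferric chelates to ferrous iron, which the transporter IRT1 carries into the epidermal cell. The basic helix-loop-helix factors of subgroup Ib, bHLH38, bHLH39, bHLH100 and bHLH101, pair with the factor FIT to activate both genes, and their own transcripts accumulate when iron is short. Ferritins are the opposite arm. They form protein shells that store iron, mainly in plastids, and their transcripts accumulate when iron is plentiful.

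The stretches just upstream of the regulator genes are shown first because all 4 regulators were lower in the ago1-36 library. Each is the 250 bases before the annotated transcript start in TAIR10.1, written 5′ to 3′ on the strand of the gene. Capitals mark E-boxes (CANNTG on either strand), the general binding motif of helix-loop-helix factors. The palindrome CACGTG among them is the G-box.
bHLH38 (chr3:21085246-21085495, minus strand): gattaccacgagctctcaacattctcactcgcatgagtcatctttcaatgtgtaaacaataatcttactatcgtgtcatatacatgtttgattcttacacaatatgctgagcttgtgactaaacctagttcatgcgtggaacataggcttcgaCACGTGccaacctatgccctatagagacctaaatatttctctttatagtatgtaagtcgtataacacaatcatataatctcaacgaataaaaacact
bHLH39 (chr3:21087711-21087960, minus strand): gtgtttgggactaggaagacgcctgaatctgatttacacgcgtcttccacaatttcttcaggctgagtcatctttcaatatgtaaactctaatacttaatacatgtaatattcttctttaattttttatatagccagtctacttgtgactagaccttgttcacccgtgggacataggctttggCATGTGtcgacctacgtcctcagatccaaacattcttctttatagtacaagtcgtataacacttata
bHLH100 (chr2:17199455-17199704, minus strand): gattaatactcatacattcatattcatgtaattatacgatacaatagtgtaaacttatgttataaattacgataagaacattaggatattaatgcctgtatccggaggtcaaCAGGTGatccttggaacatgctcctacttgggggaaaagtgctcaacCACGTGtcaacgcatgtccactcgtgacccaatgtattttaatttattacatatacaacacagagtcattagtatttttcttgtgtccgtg
bHLH101 (chr5:1139634-1139883, minus strand): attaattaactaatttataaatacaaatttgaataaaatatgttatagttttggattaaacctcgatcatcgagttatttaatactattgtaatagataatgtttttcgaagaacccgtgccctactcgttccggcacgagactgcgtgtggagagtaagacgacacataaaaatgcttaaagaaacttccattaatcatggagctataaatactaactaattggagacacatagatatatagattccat

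The upstream stretches of 9 of the 10 genes were searched, FER4 being left out. A G-box lay in 3 of these 9, where 6.49% of the 27443 stretches of equal length before protein-coding genes hold one. It began 97 bases before the start in bHLH38, 91 in bHLH100 and 76 in FER3. Any E-box, G-boxes included, was found in 5 of 9, a share near the 55.3% of all stretches. bHLH39 carried CATGTG 67 bases before its start, in a stretch with 57.5% identity to that of bHLH38. The stretches of FER1, bHLH101, IRT1 and FRO2 held neither motif within these letters. A match describes the sequence and does not show a binding site.

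**Figure D1:**
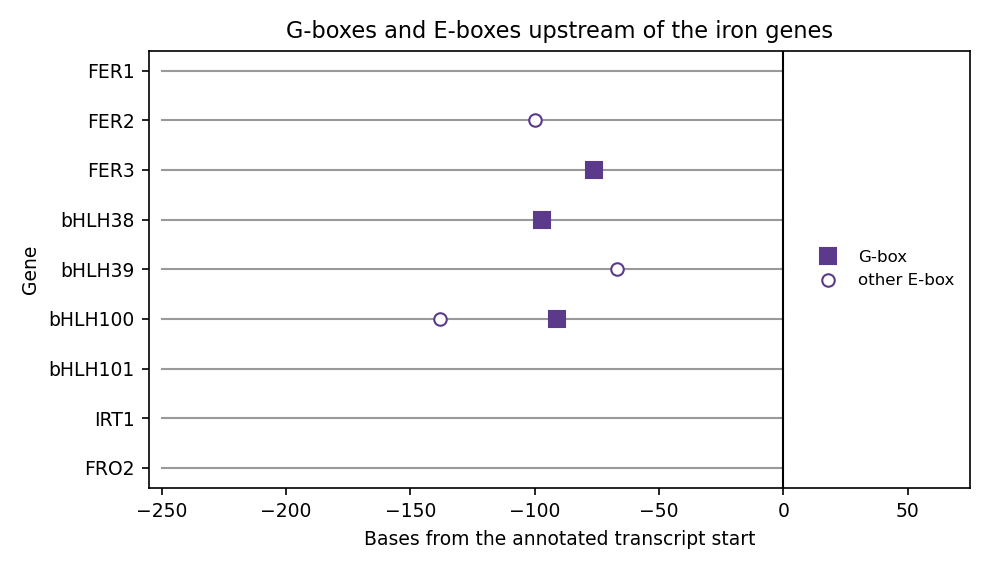
Positions of G-boxes (filled squares) and other E-boxes (open circles) in the 250 bases before the annotated start of 9 of the genes, with the distance from the start in bases on the x axis. The G-boxes of bHLH38 and bHLH100 begin 97 and 91 bases before the start, and that of FER3 begins 76 bases before it.

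All 4 subgroup Ib regulators had lower transcript levels in the ago1-36 library. Their summed level was 145 RPKM in wild type against 19.6 RPKM in ago1-36, 7.40-fold lower. bHLH38 (AT3G56970), a partner of FIT, had 39.9 RPKM in wild type against 7.98 RPKM in ago1-36. That is a 4.99-fold lower value, with a 95% counting interval of 4.02 to 6.26 from 497 and 99 reads. Such intervals are exact, rest on reads recovered from the table, and cover counting error only. bHLH39 (AT3G56980), also a partner of FIT, had 38.4 RPKM in wild type against 5.85 RPKM in ago1-36, 6.57-fold lower (95% counting interval 5.07 to 8.63, from 443 and 67 reads). This pair lies in tandem on chromosome 3, from 21084035 to 21085245 and from 21086390 to 21087710, on the same strand, 1144 bases apart and with no annotated gene between them.

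bHLH100 (AT2G41240, chromosome 2, 17198037 to 17199454) had 54.0 RPKM in wild type against 5.01 RPKM in ago1-36. It was 10.8-fold lower (95% counting interval 8.12 to 14.5, from 574 and 53 reads). bHLH101 (AT5G04150, chromosome 5, 1138410 to 1139633) had 12.5 RPKM in wild type against 0.712 RPKM in ago1-36. Its 17.6-fold lower value rests on 124 and 7 reads and has a wide 95% counting interval of 8.30 to 44.7. In all 4 regulators the counting intervals of the levels in the libraries stayed apart, as the plot of RPKM by library shows.

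**Figure D2:**
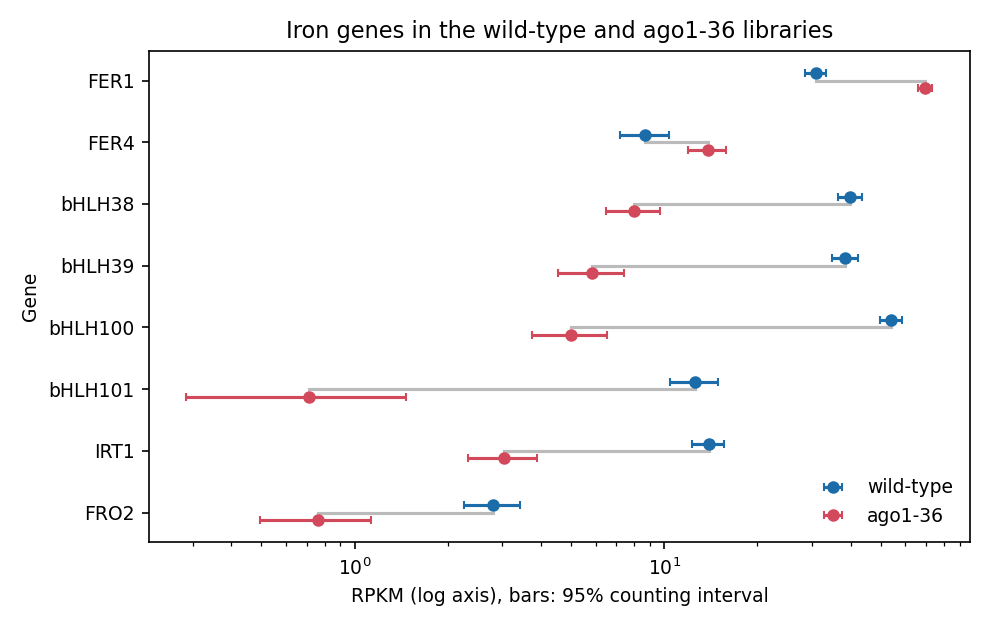
Level of each listed iron gene as RPKM (log axis) in the wild-type library (blue) and the ago1-36 library (red), 1 library each, with 95% counting intervals as bars. FER1 and FER4 lie higher in ago1-36, and the other 6 genes lie lower.

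The regulators differed in how much lower they were. The ratio of bHLH100 was 2.16 times further down than that of bHLH38 (95% counting interval 1.49 to 3.14), and the ratio of bHLH101 was 3.53 times further down (95% counting interval 1.59 to 9.22). Between bHLH39 and bHLH38 the factor was 1.32, with an interval of 0.930 to 1.87 that includes equal ratios. The order of levels changed as a result. In the wild-type library bHLH100 was the highest regulator, 1.35 times bHLH38 (95% counting interval 1.2 to 1.53), followed by bHLH38 and bHLH39, which were not separable (1.04, 0.911 to 1.18), and by bHLH101. In the ago1-36 library bHLH38 came first. There bHLH38 and bHLH39 (ratio 1.37, interval 0.992 to 1.89) and bHLH39 and bHLH100 (ratio 1.17, 0.802 to 1.71) were not separable, and bHLH101 stayed the lowest. bHLH100 made up 37.3% of the summed regulator RPKM in the wild-type library and 25.6% in the ago1-36 library, and bHLH38 made up 27.5% and 40.8%.

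Coding sequences bear on whether reads of these relatives can be told apart. Those of bHLH38 and bHLH39 were 83.1% identical over 777 aligned positions, the closest pair of the subgroup, and bHLH101 was the most distant member, at 53.6% to 55.8%. No stretch of 50 bases was shared exactly between any pair of the 4 regulators. Only exact matches within coding sequences were sought, so this does not show how reads were assigned. The bHLH101 gene overlaps the end of GLU1 (AT5G04140), a glutamate synthase gene on the opposite strand, by 79 bases. GLU1 had 526 RPKM in wild type against 257 RPKM in ago1-36, and the use of strand in counting is not given in the sources used here. bHLH38 overlaps the unlisted gene AT3G56960 by 386 bases on the opposite strand.

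The effectors of uptake were lower as well. IRT1 (AT4G19690, chromosome 4, 10707344 to 10709015), the main root iron importer, had 13.9 RPKM in wild type against 3.03 RPKM in ago1-36. It was 4.60-fold lower (95% counting interval 3.47 to 6.17, from 282 and 61 reads). FRO2 (AT1G01580, chromosome 1, 208995 to 213082), the ferric chelate reductase, had 2.79 RPKM in wild type against 0.763 RPKM in ago1-36, 3.66-fold lower (95% counting interval 2.33 to 5.94, from 92 and 25 reads). The ratios of IRT1 and FRO2 were not separable (factor 1.26, interval 0.712 to 2.17), nor were those of IRT1 and bHLH38 (factor 1.09, 0.750 to 1.56). FRO2 was the least abundant of the 8 genes in wild type. IRT2 (AT4G19680), the neighbour of IRT1 on the same strand 2505 bases away, had 11 reads in the wild-type library and 1 in the ago1-36 library, below the level at which genes were counted. FRO1, the neighbour of FRO2, was not analysed here.

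**Figure D3:**
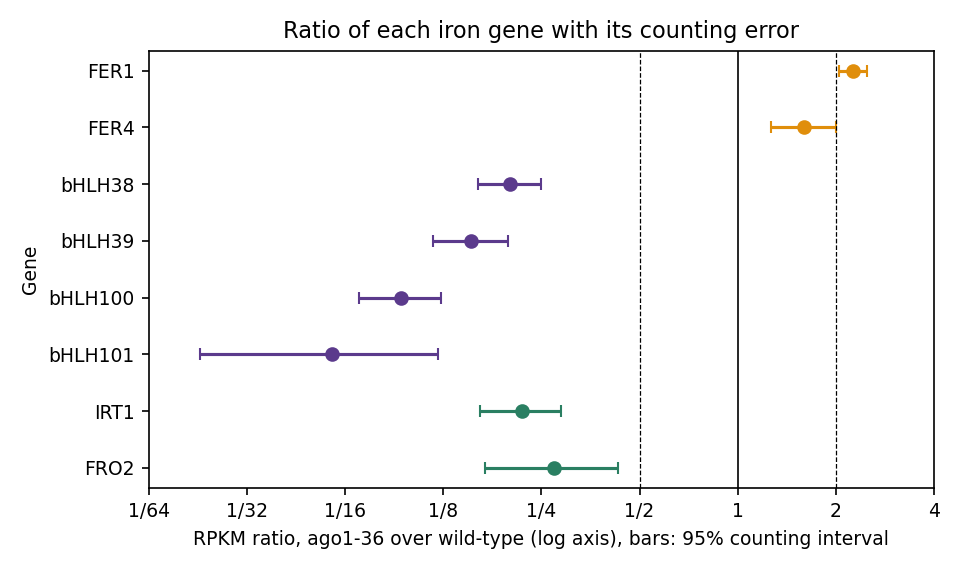
RPKM ratio of ago1-36 over wild-type for each listed iron gene (log axis), with the exact 95% counting interval as bar; dashed lines mark 2-fold. The intervals of the 4 regulators, IRT1 and FRO2 lie wholly below the lower 2-fold line, and that of FER1 lies wholly above the upper one.

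Ferritin transcripts lay on the other side. FER1 (AT5G01600, chromosome 5, 227953 to 230051), the main leaf ferritin, had 30.8 RPKM in wild type against 69.7 RPKM in ago1-36. It was 2.26-fold higher (95% counting interval 2.05 to 2.49, from about 599 and 1346 reads). FER4 (AT2G40300, chromosome 2, 16831109 to 16833294), a ferritin of plastids and mitochondria, had 8.67 RPKM in wild type against 13.8 RPKM in ago1-36. It was 1.59-fold higher (95% counting interval 1.27 to 2.01, from 125 and 198 reads). The counting intervals of the levels did not overlap between the libraries for either gene, and the ratio of FER1 was 1.42 times that of FER4 (95% counting interval 1.1 to 1.82). FER1 was 3.55 times as abundant as FER4 in the wild-type library and 5.04 times in the ago1-36 library, and their summed level was 39.5 and 83.5 RPKM.

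The FER1 value carries a specific uncertainty. The antisense gene AT5G01595 overlaps FER1 by 1334 bases and is listed with 22.9 RPKM in wild type against 49.3 RPKM in ago1-36, 2.15-fold higher (95% counting interval 1.87 to 2.48). Without strand, reads of FER1 and of this transcript cannot be told apart. FER4 overlaps AT2G40290, an eIF2-alpha gene on the same strand, by 118 bases, and that gene had 131 and 171 RPKM, 1.31-fold higher. Coding sequences of the ferritins were 67.0% to 76.4% identical, FER3 and FER4 being the closest pair, and no pair shared an exact stretch of 50 bases. As for the regulators, this does not show how reads were assigned.

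Set against all genes, the regulators were near the bottom of the list. A gene was kept where either library reached 1 RPKM, which left 11373 genes, all 8 iron genes included. After adding 1 to every RPKM value, the log2 ratio of ago1-36 to wild type was taken, and 2-fold on that scale was the mark for higher or lower. At least 2-fold lower were 6 of the 8 iron genes, where 8.38% of all kept genes were, and 1 of 8, FER1, was at least 2-fold higher, where 19.6% of all kept genes were. Of the 6, bHLH101 and FRO2 passed the filter through wild type alone, which fixed their direction, so the count is a description. The log2 ratio was -3.19 for bHLH100, -2.98 for bHLH101, -2.53 for bHLH39 and -2.18 for bHLH38, which rank 36, 53, 84 and 124 from the lowest of the 11373 ratios. IRT1 at -1.89 ranked 189, and FRO2 at -1.10 ranked 741. FER1 at 1.15 ranked 1829 from the highest and FER4 at 0.62 ranked 3962. The median was -2.75 over the 4 regulators and 0.88 over the listed ferritins, beside -0.04 over all kept genes.

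In level, too, the regulators changed place among the genes. bHLH100 lay above 83.9% of the kept genes in the wild-type library and above 23.1% in the ago1-36 library, and bHLH101 above 50.9% and 2.47%. FER1 lay above 73.8% and 85.9%. Genes with a deposited log2 fold change near 0 were scarce. Equal RPKM values lie near -0.185 on that scale, so the scarce genes are not those of equal RPKM. A log2 fold change between -0.1 and 0.1 was given to 59 kept genes in the authors' deposited table, against 500 between 0.1 and 0.3 and 708 between -0.3 and -0.1, so shares of all kept genes hold for the genes of this table alone. The log2 fold change of FER1 in the authors' deposited table was 0.99, just under 2-fold, and those values lie -0.185 from the log2 ratio of the RPKM values. By that column of the authors' deposited table, higher genes were 55.7% of all 2-fold differences instead of 70.0%, and 15.7% of kept genes were lower and 19.8% higher.

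**Figure D4:**
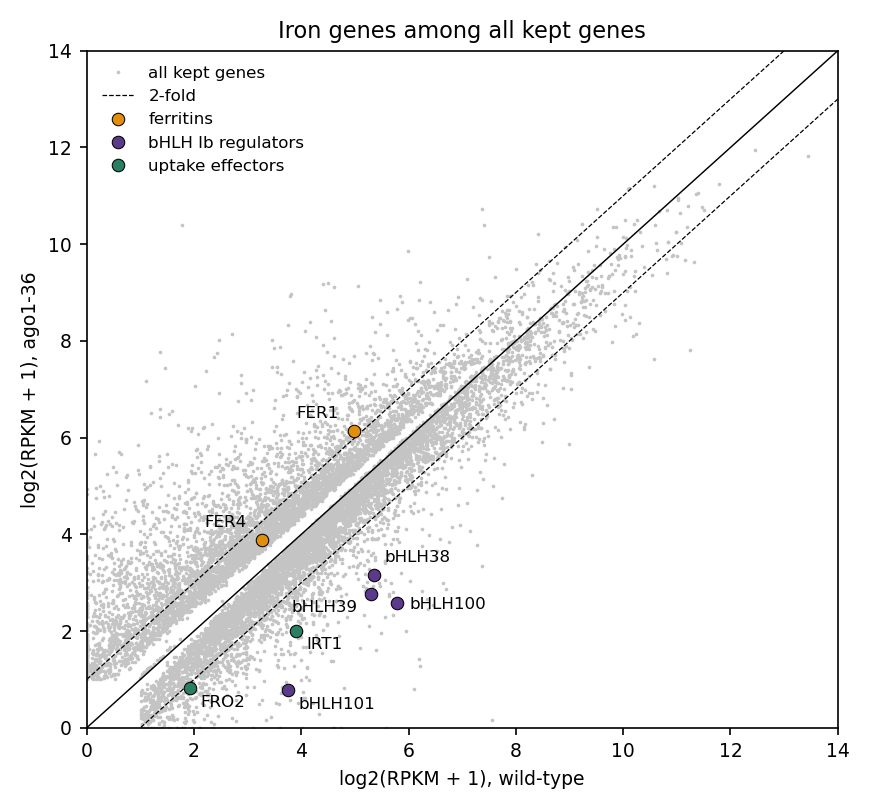
Level of every kept gene as log2(RPKM + 1) in the wild-type library (x axis) and the ago1-36 library (y axis), 1 library each; the solid line marks equal levels and dashed lines 2-fold. The 4 regulators, IRT1 and FRO2 lie below the lower dashed line, FER1 lies just above the upper one, and FER4 lies between equality and 2-fold.

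Other genes of iron nutrition were taken from 4 lists of 78 genes, of which 50 were listed and 48 kept. Of these 48, 9 were at least 2-fold lower (18.8%, against 8.38% of all kept genes) and 7 at least 2-fold higher (14.6%, against 19.6%), with a median log2 ratio of -0.22.

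Among 26 further iron regulators 17 were kept, with 1 lower (5.88%, against 8.38% of all kept genes), 3 higher (17.6%, against 19.6%) and 13 between, shares near those of all kept genes. The median log2 ratio was -0.19. BTS, an E3 ligase that restrains the iron deficiency response, was the lower one, with 88.2 RPKM in wild type against 39.9 RPKM in ago1-36. PYE, a helix-loop-helix repressor whose transcript also accumulates in iron deficiency, had 26.9 and 24.7 RPKM, with a counting interval of the ratio (0.805 to 1.05) that includes equal levels. Upstream of the Ib genes act bHLH115, with 35.6 and 27.0 RPKM, bHLH34, with 15.3 and 28.9 RPKM, and URI (bHLH121), with 21.7 and 18.9 RPKM, all under 2-fold and in differing directions. AT1G74770, annotated as a zinc ion binding protein, had 2.08 and 0.584 RPKM and a log2 ratio of -0.96, just inside 2-fold on the scale used. FIT, the partner of the Ib factors, was not analysed here, nor were ILR3 and bHLH104.

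The higher regulators were ZAT12, AT2G22760 and PHL1, of which AT2G22760 passed the filter through ago1-36 alone. ZAT12, a stress zinc-finger protein that binds FIT, had 20.3 RPKM in wild type against 242 RPKM in ago1-36, 12.0-fold higher (95% counting interval 10.4 to 13.8). AT2G22760, annotated as a helix-loop-helix protein, had 0 and 66 reads, and the 95% counting lower limit of its ratio was 17.5. Setting the wild-type library to a floor of 3 reads gives a ratio of 22.1, which is not a bound. PHL1, a relative of the phosphate starvation factor PHR1, had 5.99 and 14 RPKM. PHR1, which is known to activate FER1, was under 2-fold, with 27.5 and 41.6 RPKM. A part of PHR1 in the FER1 value was not tested. The most abundant genes of the list, AT2G30766 and AT1G47395, which the annotation leaves uncharacterized, had 261 and 207 RPKM and 219 and 128 RPKM.

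Of 17 further reductase, uptake and coumarin genes 11 were listed and 9 kept. Of the 9, 3 were lower (33.3%, against 8.38% of all kept genes), 0 higher (against 19.6%) and 6 between. The median log2 ratio was -0.35. CYP82C4 passed the filter through wild type alone. CYP82C4, a cytochrome P450 of the early iron deficiency response, was the lowest, with 11.4 RPKM in wild type against 0.808 RPKM in ago1-36. Its 14.2-fold lower value (95% counting interval 9.0 to 23.5, from 285 and 20 reads) lies in the range of bHLH100 and bHLH101. FRO3 and FRO8, relatives of FRO2 in mitochondria, were 2.49-fold lower (51.7 and 20.8 RPKM) and 3.40-fold lower (4.46 and 1.31 RPKM). The shoot reductases FRO6, with 58.2 and 78.1 RPKM, and FRO7 of the chloroplast, with 42.8 and 53.5 RPKM, lay slightly on the higher side. AHA2, the proton pump that acidifies the soil around the root, had 171 and 148 RPKM, and F6'H1, an enzyme of coumarin synthesis, had 13.2 and 22.5 RPKM. AT3G12900, annotated as an iron-dependent oxygenase, had 12 reads in the wild-type library and 0 in the ago1-36 library and fell under the filter, like IRT2.

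Of 16 kept genes of iron movement and storage, 3 were lower and 3 higher (18.75% each, against 8.38% and 19.6% of all kept genes), and 10 lay between (median log2 ratio -0.32). The share of higher genes was thus near that of all kept genes. Log2 ratios lay above 0 for 5 of the 16 and below 0 for 11. Nicotianamine synthases make the metal chelator that accompanies iron in the plant, and their values lay on both sides. NAS4 was 6.57-fold lower (20.3 and 3.09 RPKM, 95% counting interval 4.83 to 9.09) and NAS1 2.37-fold lower (68.2 and 28.75 RPKM), while NAS3 was 5.46-fold higher (7 and 38 reads, 95% counting interval 2.41 to 14.5). NAS2 had 1.44 and 0.458 RPKM. The YSL transporters of metal-nicotianamine complexes had differing directions, with YSL2 at 45.1 and 17.7 RPKM, YSL1 at 6.11 and 30.7 RPKM and YSL3 at 14.3 and 27.0 RPKM. NRAMP3, which releases iron from the vacuole, was 3.40-fold higher (3.06 and 10.4 RPKM), and its partner NRAMP4 had 30.9 and 29.1 RPKM. OPT3, the phloem iron transporter, had 123 and 105 RPKM, and FRD3, which loads citrate into the xylem, had 2.1 and 5.0 RPKM.

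**Figure D5:**
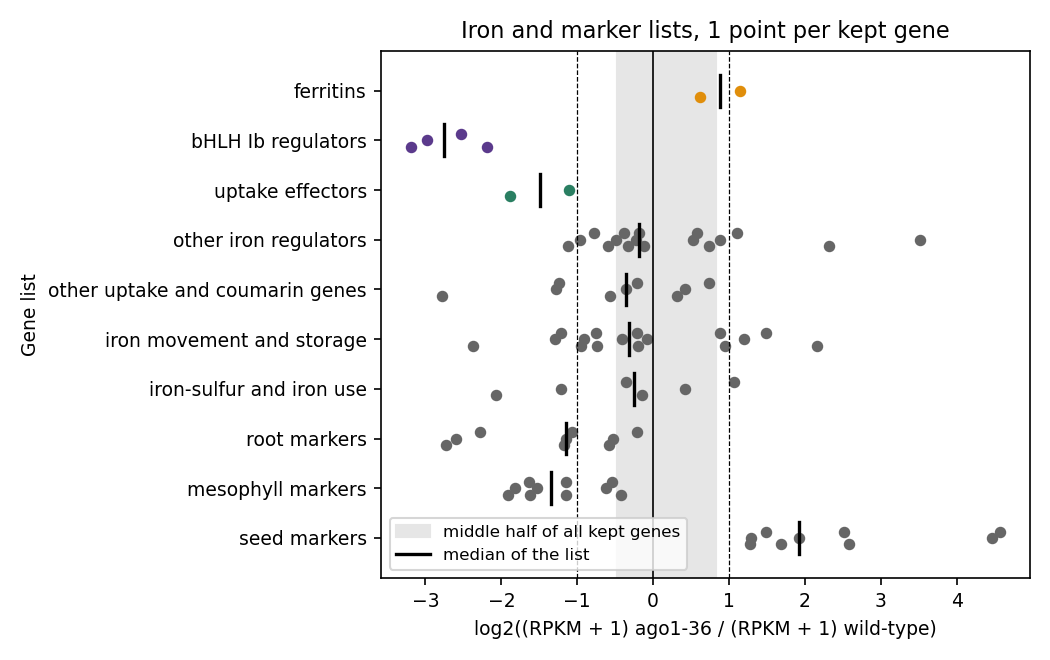
Log2 ratio of ago1-36 over wild-type, on the scale of RPKM plus 1, for each kept gene (points) of the iron and marker lists, with the list median as a bar, the range from the lower to the upper quartile of all kept genes in grey and 2-fold as dashed lines. The Ib regulators (-3.19 to -2.18) lie apart from the further iron regulators, whose median is -0.19.

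Of 6 kept genes for iron use, 2 were lower (33.3%, against 8.38% of all kept genes) and 1 higher (16.7%, against 19.6%). The photosynthetic ferredoxins FD1 and FD2, iron-sulfur electron carriers of the chloroplast, had 1159 and 274 RPKM and 398 and 171 RPKM. NEET, an iron-sulfur protein, had 4.85 and 11.2 RPKM. The scaffold genes of iron-sulfur cluster assembly were under 2-fold, with ISU1 of the mitochondria at 60.3 and 81.2 RPKM and SUFD of the plastid at 27.1 and 24.4 RPKM.

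Markers of the organs and cells that express these genes differed between the libraries as well. All 9 listed root markers of 14 were lower in ago1-36, 6 of them past 2-fold (66.7%, against 8.38% of all kept genes, median log2 ratio -1.15), and their summed level was 1059 RPKM in wild type against 869 RPKM in ago1-36. None of the 9 was at 0 in either library. Within that list the 4 listed root hair markers were all at least 2-fold lower (summed level 36.4 and 4.38 RPKM, 8.32-fold lower), LRX1 among them at 6.82 and 0.602 RPKM, and 2 of the 4 passed the filter through wild type alone. The 5 other root markers summed to 1023 and 865 RPKM, 1.18-fold lower, of which PYK10 alone had 960 and 829 RPKM. Without PYK10 the other 4 summed to 62.4 and 35.8 RPKM, 1.74-fold lower. Of the 5, CASP1 (17.5 and 7.83 RPKM) and TIP2;3 (5.98 and 2.1 RPKM) were past 2-fold, and SCR of the endodermis had 21.2 and 14.4 RPKM. The summed level of the Ib regulators was 7.40-fold lower and that of IRT1 and FRO2 4.41-fold lower. Fewer root or root hair cells and less RNA per cell cannot be told apart in whole seedlings, and the part of root tissue in the lower values was not tested.

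Leaf mesophyll markers were lower in 10 of 10 cases, 7 by at least 2-fold (70%, against 8.38% of all kept genes), with summed levels of 26166 and 11470 RPKM, whereas FER1, which is known as a leaf ferritin, was higher. Seed markers were listed for 10 of 12 genes, 7 of them at 0 in the wild-type library, and summed to 0.448 and 72.3 RPKM. All 9 kept seed markers passed the filter through ago1-36 alone, so their direction was fixed by it. The transcript level of FER2, the seed ferritin, was not analysed here, and the part of seed transcripts in the FER1 and FER4 values was not tested.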

How the data were processed

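Per the file headers, the deposited table holds RPKM values for both libraries. A deposited GFOLD score and a deposited log2 fold change compare ago1-36 with wild type. The submitters' processing notes name TopHat2 2.0.11 and TAIR10. Libraries were made by the SMART approach from TRIzol-extracted RNA, per the labels' protocols. Neither the counting tool nor its strand setting is given in the sources used here. A total of 291 repeated lines and 2 fragment lines were dropped.

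Whole reads were recovered from both RPKM values and the deposited log2 fold change, which equals log2 of reads plus 1 less an offset of 0.176622. Of 3175 genes with 1 to 100 wild-type reads, 3172 (99.9%) came out whole within 0.1. For 7 of the 8 iron genes 1 pair of whole numbers matched, and for FER1 4 pairs did, of which the nearest to the solved value was used. Counting intervals are exact Clopper-Pearson (95%) for ratios and exact Poisson for levels, with a conditional odds ratio between genes (SciPy 1.17.1). Without molecular identifiers, PCR copies count as separate reads, so intervals cover counting error only. The steps were tested on simulated data.

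Gene models, coordinates and upstream sequences came from RefSeq TAIR10.1, and coding sequences were aligned globally with Biopython 1.88. The upstream stretch of FER4 is not reported here. The members and lists were chosen with earlier results of these data known. Named genes are the 10 members, every listed gene of the 4 further iron lists past 2-fold and the 2 most abundant others. Named outside that rule, after their values were seen, were PYE, bHLH34, bHLH115, URI, AT1G74770, PHR1, IRT2, AT3G12900, F6'H1, FRO7, NAS2, YSL3, FRD3 and the overlapping genes. Of the marker lists, whose values are given as counts and sums, LRX1, PYK10, SCR, CASP1 and TIP2;3 are named as examples. Alternatives were other pseudocounts (0.1, 0.5), all listed genes, genes reaching 5 RPKM, 3 rescalings, the deposited log2 fold change and, added after the data were seen, the GFOLD score.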

Additional observations from a re-analysis of the deposited data

How the results depend on the processing

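No paired analysis was possible because each genotype has 1 library, and for the same reason no replicate could be left out. Over the 9 alternatives, 66 of 71 values of single iron genes moved by less than 0.5 times the width of their log2 counting interval. None changed sign, and FRO2 was removed by the filter of 5 RPKM. Keeping all listed genes or filtering at 5 RPKM cannot alter the value of a kept gene. The unchanged values under those settings were therefore fixed in advance. The count of lower iron genes stayed within 1.5 times of 6 in all 9. The count of higher iron genes was 0 by the deposited log2 fold change and 0 by the deposited GFOLD score, where FER1 had 0.99 and 0.83 in the authors' deposited table. FER4 had a GFOLD score of 0.10 in the authors' deposited table. The median of the Ib regulators was -3.24 by the deposited log2 fold change, and that of the ferritins 0.47 by the GFOLD score. Among further regulators 2 were lower instead of 1 with pseudocounts of 0.1 or 0.5, with libraries scaled to a sum of 1000000 (also without organelle genes and the 50 most abundant), by the deposited log2 fold change and by the GFOLD score. Genes of iron movement and storage had 6 lower instead of 3 with either pseudocount and with the scaling without abundant genes, and 7 by the deposited log2 fold change. Genes of iron use had 0 higher by the GFOLD score. The counts over all 11373 kept genes changed too. Lower were 953 in the main setting, 1304 and 1150 with pseudocounts of 0.1 and 0.5, and 1103 scaled to a sum of 1000000. Without organelle and abundant genes 1305 were lower, by the deposited log2 fold change 1791 and by the GFOLD score 857. Higher were 2228 in the main setting, 2249 by the deposited log2 fold change and 1391 by the GFOLD score. The median of all kept genes was -0.23 by the deposited log2 fold change, and the cause of these shifts was not tested. bHLH101 rests on 7 reads in ago1-36.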
